A study of Mus musculus with 17 samples.

Results

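The genes described here code for the proteins of the cytosolic ribosome. They were the rows of the 3 expression tables whose symbol was Rpl or Rps followed by a number, with an optional final a or x, together with the stalk genes Rplp0, Rplp1 and Rplp2 and with Rpsa. A row also needed a value of at least log2 of 10 in 3 samples, or in 2 samples of the Id3 table. This gave 76 genes of the 25124 rows of each table, 30 for the small subunit and 46 for the large subunit, and all 76 passed in each of the 3 tables. The rule took symbols only, so it missed some ribosomal protein genes, among them Fau, Rack1 and Rps3a1, which are described separately as a list.

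RNA-seq of 17 samples of cells sorted from mouse liver was analysed. The cells were KCs, or Kupffer cells, which are macrophages that live in the sinusoids of the liver. TIM4+CD206+ KCs and TIM4+CD206hi KCs were each taken from 3 untreated, tumour-free samples and from 3 samples of livers that carried tumours, 2 weeks after KPC pancreatic tumour cells had been injected through the portal vein. A separate table held KCs of 3 Id3f/f samples, with floxed Id3 alleles and no Cre, and of 2 Clec4fCreId3f/f samples, with the same alleles and a Cre under the KC gene Clec4f, all of them untreated. The labels of these samples give no strain, age or sex, and they do not say that each was a separate animal, so p-values measure the spread between these samples.

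The ribosome reads mRNA and makes protein. Its small subunit binds the mRNA and decodes it, and its large subunit joins the amino acids. The proteins are needed in equal number, with the stalk proteins present in several copies, and many of their mRNAs start with a run of pyrimidines through which their translation follows growth signals. The Id3 protein pairs with E-protein transcription factors and keeps them off DNA.

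The values are log2 expression values that the authors normalized in each table separately, so levels were compared within a table only. On this scale a difference of 1 is a doubling, and the depth of each sample is not given in the sources used here. The transformation is not stated either. The values are shaped like regularized log values, and if they are such values, differences of low genes are understated. Each comparison was fitted with limma over all rows above the minimum, and a gene was called at a Benjamini-Hochberg adjusted p under 0.05.

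Sequences at the start sites of members that the results turn on are given because a pyrimidine run there is the feature these genes are known to share. The RefSeq promoter table, of the mouse build GRCm38.p6, held 56 of the 76 genes. Each sequence is the 15 bases before the annotated start and the first 15 bases of the transcript, read 5′ to 3′ on the gene's own strand, so the first transcribed base is number 16, and capitals mark the longest run of C and T in the window. Rps27 and Rpl37 were lower after Id3 deletion, Rps15a and Rpl31 were among the members with the larger differences in tumour-bearing livers, and Rps2 and Rpl13 varied most between samples in the tumour tables. The windows lay at chr3:90213634-90213663 for Rps27 and chr7:118116133-118116162 for Rps15a, both on the minus strand, and on the plus strand at chr15:5116598-5116627 for Rpl37, chr1:39367836-39367865 for Rpl31, chr17:24720048-24720077 for Rps2 and chr8:123102335-123102364 for Rpl13. Except for Rps2, each holds the end of the promoter and the start of the first exon, in the 5′ UTR. The Rps2 window lies inside the gene, whose listed start is 24718121, so it is not shown to be the start of the first exon.
Rps27: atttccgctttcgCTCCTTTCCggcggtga
Rps15a: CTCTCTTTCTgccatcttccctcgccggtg
Rpl37: agTTTCCTgggcggaagcttatccacagga
Rpl31: CTTCCTCCTCgcctccccgtgacccggaag
Rps2: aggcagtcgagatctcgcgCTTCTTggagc
Rpl13: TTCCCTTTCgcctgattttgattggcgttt

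A run of at least 7 pyrimidines was present in this window in 31 of the 56 members, 55.4%, as against 21.3% of all 27025 genes of the promoter table and 21.9% of the 10107 of those that were tested in the Id3 table. The share was 54.5% of 22 small subunit genes and 55.9% of 34 large subunit genes. The first transcribed base was C in 33.9% of the members and in 18.9% of all genes. Some genes have several annotated starts, and the 56 members had 66 entries. A gene was counted for a run, a first base or a motif when any of its entries held it. Of the windows printed, those of Rps27, Rps15a, Rpl31 and Rpl13 held such a run, and those of Rpl37 and Rps2 did not. The run of Rps27 spanned the annotated start, and those of Rps15a, Rpl31 and Rpl13 began at the upstream edge of the window. A run in a window is a property of these letters and of the annotated start, and was not taken as a site.

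In the 300 bases from 250 before to 50 after the start, searched on both strands, CCGGAA, the core bound by ETS factors, was found in 55.4% of the members, in 31.2% of the promoters of genes tested in the Id3 table and in 16.7% of all promoters. AAGATGGC, the core bound by YY1, was found in 8.93% of the members and in 5.31% of the tested genes. The GC box GGGCGG was in 60.7% of the members and 66.3% of the tested genes, and TATAAA in 10.7% and 9.42%. Matches of different motifs can share bases and were counted separately.

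Per length of transcript, small and large subunit genes had close levels. In control samples the median log2 value per kilobase was 13.33 for small and 13.03 for large subunit genes in TIM4+CD206+ KCs, 12.49 and 12.41 in TIM4+CD206hi KCs, and 12.07 and 12.06 in the Id3f/f KCs. The difference of 0.29 in the TIM4+CD206+ table became 0.13 per kilobase of coding sequence, that of 0.07 in the TIM4+CD206hi table became -0.01, and that of 0.01 in the Id3 table became -0.12. Genes within a subunit spread much more widely than the subunits did, from 10.47 to 15.11 for the small and from 10.36 to 15.49 for the large subunit genes in tumour-free TIM4+CD206+ KCs.

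The order at the top was nearly the same in the 3 tables. Rps14 and Rps9 were among the 3 highest small subunit genes per kilobase in each, with Rps14 at 15.11 ± 0.56 (SD, n = 3) and Rps9 at 14.95 ± 0.20 in tumour-free TIM4+CD206+ KCs, a difference within their spread. Rps9 came first in TIM4+CD206hi KCs at 14.23 ± 0.37 and in Id3f/f KCs at 13.85 ± 0.10. Rplp0 and Rpl32 were among the 3 highest large subunit genes in each table. Rplp0, which forms the base of the stalk that recruits elongation factors, stood at 15.33 ± 0.46 in tumour-free TIM4+CD206+ KCs and at 13.82 ± 0.10 in Id3f/f KCs. Rpl32 stood at 15.08 ± 0.40 and 13.67 ± 0.14 there.

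At the low end stood Rps21, Rps24 and Rps20 among the small subunit genes in all 3 tables. Rps20 was at 10.47 ± 0.12 per kilobase of transcript in tumour-free TIM4+CD206+ KCs but at 13.85 per kilobase of coding sequence, since its annotated transcript of 3706 bases was the longest of the members. Among the large subunit genes, Rpl5, which carries 5S ribosomal RNA to the ribosome with Rpl11, was lowest in TIM4+CD206+ KCs at 10.36 ± 0.24. Rpl39 was lowest in TIM4+CD206hi KCs at 10.41 ± 0.51 and Rpl27a in Id3f/f KCs at 10.01 ± 0.11. A member with near-identical processed pseudogenes may have lost reads to them in counting, so the order of levels is uncertain to that extent.

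In TIM4+CD206+ KCs the members held 2.05%, 1.72% and 2.08% of the summed unlogged values in the tumour-free samples and 2.79%, 2.38% and 2.91% in the tumour-bearing samples. In TIM4+CD206hi KCs these shares were 1.15%, 0.997% and 1.49% without and 1.27%, 1.35% and 1.21% with tumours, and in the Id3 table they were 1.35%, 1.20% and 1.24% in Id3f/f and 1.10% and 1.19% in Clec4fCreId3f/f samples. The groups did not overlap in the first and the last of these tables and overlapped in TIM4+CD206hi KCs. Because these are bulk samples, fewer cells of a type and less RNA per cell cannot be told apart in any of these values.

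**Figure D1:**
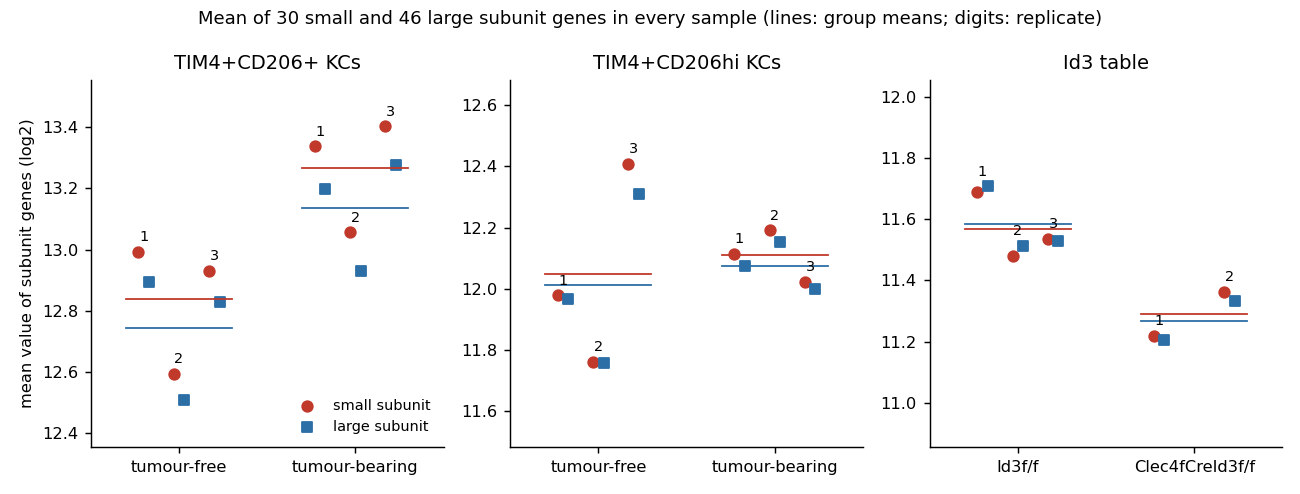
Mean log2 value of the 30 small subunit genes (circles) and the 46 large subunit genes (squares) in each sample, with group means as lines and replicate numbers beside the points; each panel is a separately normalized table. Both subunits moved together from sample to sample, tumour-bearing TIM4+CD206+ samples lay above tumour-free ones, and both Clec4fCreId3f/f samples lay below the 3 Id3f/f samples.

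The first comparison asks how the members of TIM4+CD206+ KCs differ when the liver carries a tumour. All 76 had a higher mean in tumour-bearing samples, with a median difference of 0.40 on the log2 scale and a range from 0.17 to 0.65, beside a median of 0.02 over the 13233 genes tested. Small subunit genes had a median of 0.43 and large subunit genes of 0.39. None of the 76 reached an adjusted p under 0.05 in limma, where 3.54% of all genes tested did and 2.55% did with a higher value. At an unadjusted p under 0.05 there were 31 members, 15 of the small and 16 of the large subunit, beside 17.2% of all genes, and all 31 were higher, as were 9.33% of all genes. That number depended on processing. It was 1 with median centring, beside 1976 of 13233 genes, and 58 with quantile normalization, beside 2299. With the length trend removed it was 1, beside 2126 of 13058 genes, and with GC and length trends removed 5, beside 1914. Without tumour-bearing replicate 3 it was 1, beside 1706 of 13233 genes, and without tumour-bearing replicate 2 it was 36, beside 1832.

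The members were separated between groups more often than they were called. In 32 of the 76 every tumour-bearing sample was above every tumour-free sample, 16 in each subunit, beside 12.9% of all genes, and in none was the order the other way, beside 10.5%. The median SE of a member's difference was 0.19. Tumour-free replicate 2 was the lowest of the 6 samples for 64 members, and without it the median difference was 0.27 with 74 members positive. Over all 6 samples left out in turn the median ran from 0.27 to 0.52.

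The largest differences were those of Rps2, Rpl31 and Rpl36a. Rps2, a protein at the mRNA entry side of the small subunit, read 12.82, 13.73 and 13.66 in tumour-free and 13.79, 14.54 and 13.83 in tumour-bearing samples, a difference of 0.65 ± 0.30 (SE) with an adjusted p of 0.31 in limma. Rpl31, a protein near the exit of the nascent chain tunnel, read 11.60, 11.42 and 11.37 and then 12.10, 11.81 and 12.29, a difference of 0.60 ± 0.18 with an adjusted p of 0.12, the lowest of the members. The tumour-bearing samples were all higher for both genes, but by a small margin for Rps2, whose lowest tumour-free sample stood well under the others. Rpl36a, which is on the X chromosome, read 10.49, 10.25 and 10.35 and then 10.96, 10.69 and 11.25, again without overlap, a difference of 0.60 ± 0.19 with an adjusted p of 0.15 in limma.

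The labels number the replicates but state no pairing of tumour-free with tumour-bearing samples. Pairing by number was inferred from these data, in which same-numbered samples of these KCs had correlations over genes of 0.35, 0.56 and 0.15. Samples of different numbers were not compared in this way. With the number as a block 1 member was called in limma, in a fit where 4.66% of all genes were called higher and 3.09% lower. In that fit 51 members had an unadjusted p under 0.05, beside 22.2% of all genes. The member called was Rps15a, a small subunit protein, named here after its value was seen. It read 12.22, 11.66 and 12.05 in tumour-free and 12.65, 12.29 and 12.75 in tumour-bearing samples, so that the groups did not overlap. The difference was 0.59 ± 0.20, with an adjusted p of 0.18 in limma without the block and 0.046 with it. The latter rests on a pairing inferred from the same values.

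Near the other end, Rpl23 was higher by 0.20 ± 0.18 and Rpl3, which lies at the peptidyl transferase centre, by 0.21 ± 0.16. Rplp0 read 15.99, 15.23 and 16.08 in tumour-free and 15.96, 15.94 and 16.03 in tumour-bearing samples, with the groups overlapping. Tumour-free replicate 2 was its low sample, and without it Rplp0 differed by -0.06.

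Members with well-known roles lay between these ends. The stalk genes Rplp1 and Rplp2 were higher by 0.33 ± 0.22 and 0.45 ± 0.20, and Rpsa, also known as the laminin receptor gene, by 0.34 ± 0.22. Rps6, whose protein S6 kinase phosphorylates, was higher by 0.45 ± 0.17 and Rps19, the gene most often mutated in Diamond-Blackfan anaemia, by 0.46 ± 0.19. Rps27a, which is made as a fusion with ubiquitin, was higher by 0.56 ± 0.17. Rpl5 and Rpl11, which also bind Mdm2 when ribosome assembly fails, were higher by 0.38 ± 0.18 and 0.35 ± 0.19.

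Further members of the same kind were Rpl13a, higher by 0.36 ± 0.25, Rpl22 by 0.42 ± 0.17 and Rpl38 by 0.48 ± 0.20. The X-linked genes Rps4x, Rpl10 and Rpl39 were higher by 0.28 ± 0.16, 0.28 ± 0.19 and 0.50 ± 0.26. The 4 X-linked members had a median of 0.39 and the 72 autosomal members of 0.40. None of these stalk, X-linked and other well-known members was called, and their adjusted p in limma ran from 0.14 for Rps27a to 0.73 for Rplp0.

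**Figure D2:**
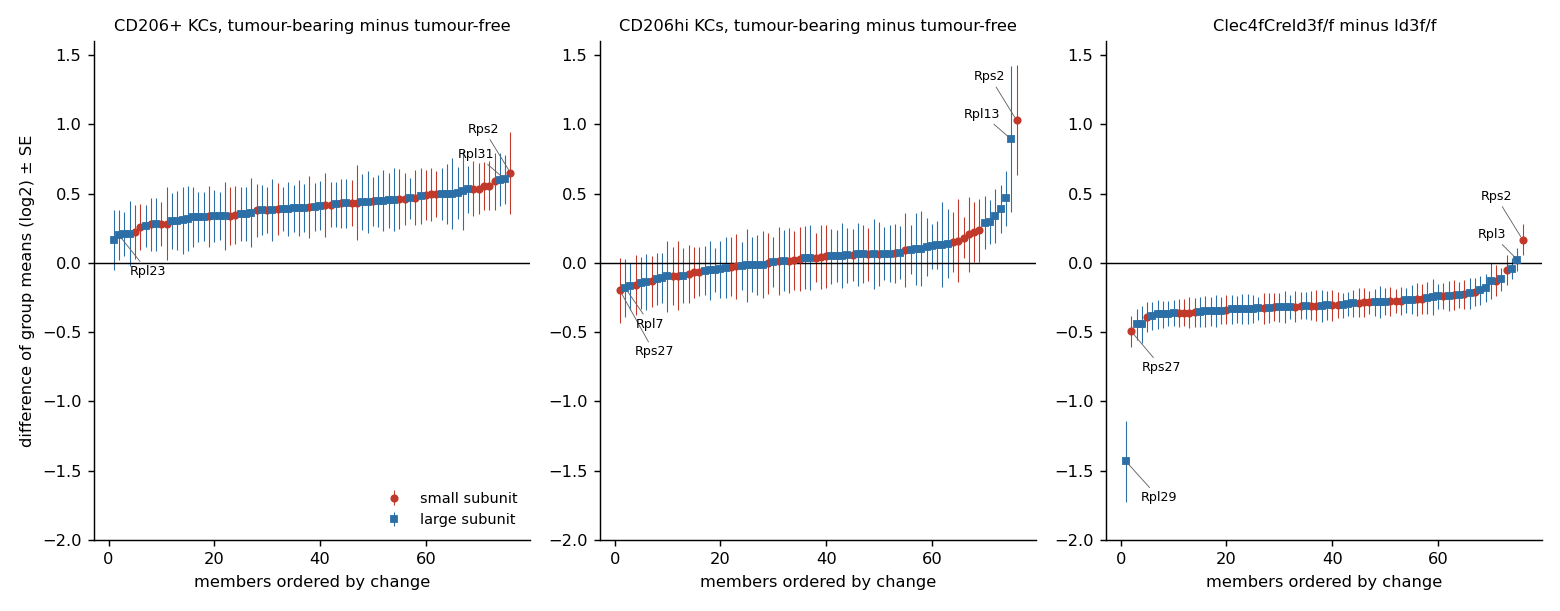
Difference of group means (log2, with its SE) for each of the 76 members, ordered within each panel by its size; circles are small and squares large subunit genes. In TIM4+CD206+ KCs all lie above 0, in TIM4+CD206hi KCs they lie around 0 with Rps2 and Rpl13 apart, and after Id3 deletion 74 lie below 0 with Rpl29 apart at -1.43.

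The subunits moved almost alike. The mean of the small subunit genes was 12.99, 12.59 and 12.93 in tumour-free and 13.34, 13.06 and 13.40 in tumour-bearing samples, and the mean of the large subunit genes was 12.90, 12.51 and 12.83 and then 13.20, 12.93 and 13.28. The small subunit mean exceeded the large one by 0.097, 0.086 and 0.101 without tumours and by 0.140, 0.127 and 0.126 with tumours. These margins did not overlap, and they differed by 0.04, which is larger than their SD of 0.008 within a group. No p is given for this margin, because the members were chosen with results known.

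Other cell types moved with the same contrast. Of the 7 epithelial genes tested, which mark tumour cells here, all 7 were called higher in tumour-bearing TIM4+CD206+ samples, and their summed share rose from between 0.00506% and 0.0088% to between 0.109% and 0.127%. Krt19, an epithelial keratin, was 7.98, 7.70 and 8.85 without and 13.61, 13.32 and 13.35 with tumours. Monocyte genes were called higher for 3 of 7 and neutrophil genes for 3 of 7, hepatocyte genes were called lower for 6 of 8, B cell genes for 3 of 4 and KC genes for 3 of 10. The share of the KC genes went from between 5.08% and 6.32% to between 3.76% and 4.04%. Of 7 proliferation genes 1 was called higher, and no endothelial, T or NK cell or stellate gene was called. The part of these in the members' differences was not tested.

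Length and GC content were set beside the differences, since the members are short. Their median transcript was 731.5 bases, 696.5 for the small and 761.5 for the large subunit, beside 2593 bases for the other genes tested in TIM4+CD206+ KCs, and their median GC content was 52.2% beside 50.8%. Other genes of 500 to 1000 bases had a median difference of 0.15 in this comparison, and the 46 members of that length had 0.41. With the trends with GC content and length taken out of each sample, the members' median was 0.24. Over the 76 members, length and difference had a Pearson r of -0.22 and a Spearman rho of -0.27, genes that share the same samples.

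**Figure D3:**
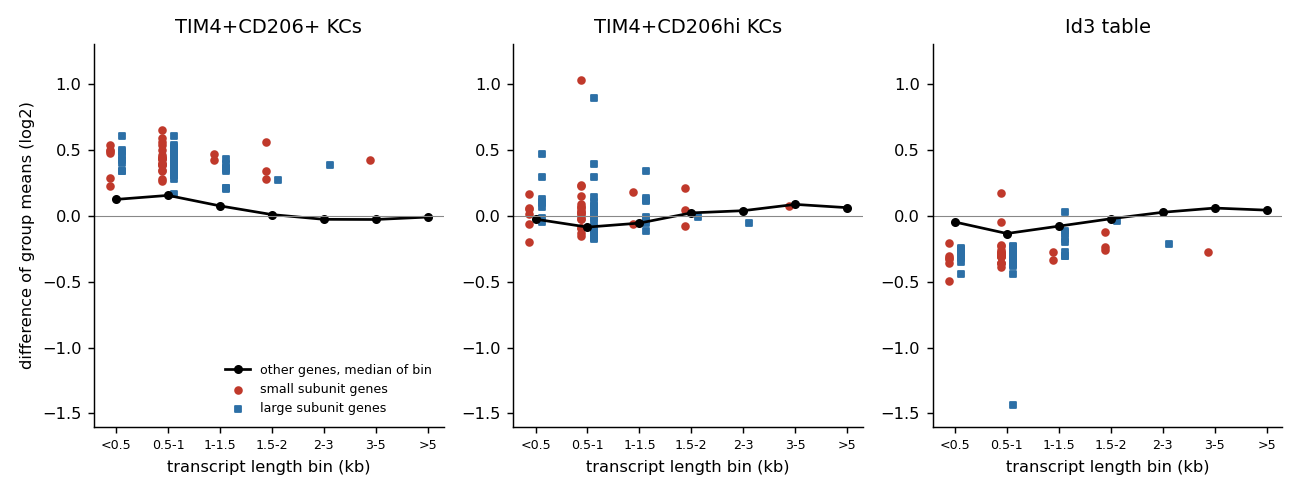
Difference of group means (log2) against transcript length in bins of kilobases, for small subunit genes (circles), large subunit genes (squares) and the median of all other genes tested in the bin (line). In the Id3 table the other genes go from -0.14 at 500 to 1000 bases to 0.06 at 3000 to 5000 bases, and most members lie below the line of their bin; in TIM4+CD206+ KCs the members lie above it.

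The second comparison is the same contrast in TIM4+CD206hi KCs, the subset with more of the mannose receptor CD206. Here the members hardly differed: 47 were higher and 29 lower in tumour-bearing samples, with a median of 0.04 beside 0.03 over the 14561 genes tested. The medians of small and large subunit genes were 0.03 and 0.05, and the differences ran from -0.20 to 1.03. None was called in limma, where 7.23% of all genes were, and 2 members, Rps2 and Rplp2, had an unadjusted p under 0.05, beside 21.1% of all genes. The groups did not overlap for 4 members, Rps2, Rplp2, Rpl8 and Rpl10a, all higher, beside 15.6% of all genes, and for none in the lower direction, beside 15.2%. Rpl8 and Rpl10a are named here after their values were seen.

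The tumour-free samples of this subset stood apart from each other. Tumour-free replicate 3 was the highest of the 6 samples for 67 members and tumour-free replicate 2 was the lowest for 61, and the tumour-bearing samples lay between. Without tumour-free replicate 3 the median difference was 0.23, with 75 members positive, 13 at an unadjusted p under 0.05 beside 24.4% of all genes, and 0 called in limma. Without tumour-free replicate 2 it was -0.15, and Rps2 was the only member called in limma, at an adjusted p of 0.036, in a fit that called 25% of all genes. The direction of the members in TIM4+CD206hi KCs therefore turned on which tumour-free sample was used, and tumour-free replicate 3 also had a slope of values on GC content of -0.45 per 10 percentage points, where the other 5 samples ran from -0.02 to 0.13.

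Rps2 and Rpl13 showed that sample most clearly. Rps2 read 12.70, 13.01 and 11.38 in tumour-free and 13.41, 13.48 and 13.29 in tumour-bearing samples, a difference of 1.03 ± 0.40 (SE) with an adjusted p of 0.20 in limma, which was 0.54 without tumour-free replicate 3. Rpl13, a large subunit protein, read 13.22, 13.63 and 11.41 and then 13.67, 13.72 and 13.56, a difference of 0.89 ± 0.53 with an adjusted p of 0.37, which was 0.22 without tumour-free replicate 3. In both, tumour-free replicate 3 was the low sample by more than a value of 1, although it was the highest sample for most other members. Rplp2 read 11.75, 11.56 and 11.13 and then 11.93, 12.04 and 11.87, a difference of 0.47 ± 0.20 with an adjusted p of 0.23, and tumour-free replicate 3 was again its lowest.

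Tumour-free replicate 3 was the lowest sample for 4 members in all, Rps2, Rpl13, Rplp2 and Rpl36. Against the mean of all members in the same sample, Rps2 stood at 0.72, 1.25 and -0.96 in tumour-free and at 1.32, 1.31 and 1.28 in tumour-bearing TIM4+CD206hi samples. Rpl13 stood at 1.25, 1.87 and -0.94 and then at 1.58, 1.55 and 1.55. The pair moved together, and the SD of this distance over the 6 samples was 0.90 for Rps2 and 1.04 for Rpl13, beside 0.43 for Rplp2, 0.38 for Rpl36 and a median of 0.10 over the members.

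The same pair varied most in TIM4+CD206+ KCs. There Rps2 stood at -0.11, 1.19 and 0.79 from the members' mean in tumour-free and at 0.54, 1.57 and 0.50 in tumour-bearing samples, and Rpl13 at -0.11, 1.40 and 0.63 and then at 0.48, 1.28 and 0.51. Their SDs were 0.58 and 0.56, the next was 0.25 for Rpl5, and the median member had 0.11. The variation ran across both groups of samples. In the Id3 table Rpl13 kept between 1.65 and 1.79, and Rps2 stood at 0.68, 0.86 and 1.18 in Id3f/f and at 1.40 and 1.36 in Clec4fCreId3f/f samples. These genes were singled out after their values were seen.

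**Figure D4:**
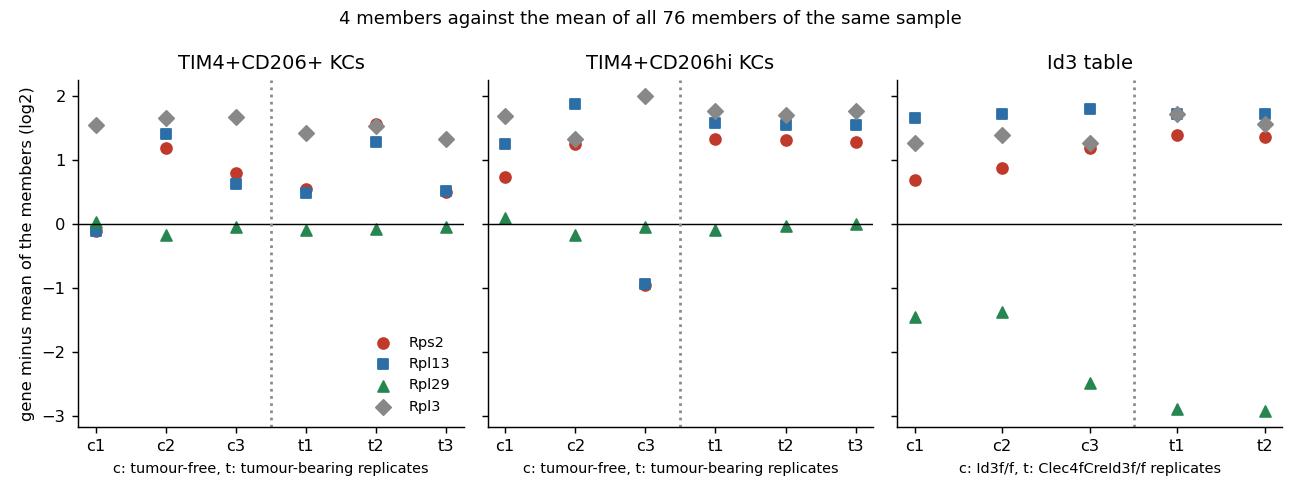
Value of Rps2, Rpl13, Rpl29 and Rpl3 minus the mean of all 76 members in the same sample (log2), by table and replicate; c marks control and t tumour-bearing or Clec4fCreId3f/f samples. Rps2 and Rpl13 fall together to -0.96 and -0.94 in tumour-free TIM4+CD206hi replicate 3, and Rpl29 lies near 0 in both tumour tables and between -1.38 and -2.93 in the Id3 table.

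The most negative members of TIM4+CD206hi KCs were Rps27 with -0.20 ± 0.23 and Rpl7 with -0.18 ± 0.21. Rplp0 differed by -0.12 ± 0.19, Rplp1 by 0.13 ± 0.17, Rpsa by 0.21 ± 0.27 and Rps27a by 0.02 ± 0.24. Rps6, Rps19, Rpl5, Rpl11, Rpl13a and Rpl22 differed by -0.09, -0.06, -0.06, -0.11, -0.05 and -0.02, each by less than its SE, and Rpl38 by 0.10. The X-linked Rps4x, Rpl10, Rpl36a and Rpl39 differed by -0.16, -0.14, 0.10 and 0.10. The lowest adjusted p of these genes in limma was 0.64, for Rpl7.

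The subunits were again close. Small subunit means were 11.98, 11.76 and 12.41 in tumour-free and 12.11, 12.19 and 12.02 in tumour-bearing samples, and large subunit means were 11.97, 11.76 and 12.31 and then 12.07, 12.15 and 12.00. The small minus large margin was 0.011, 0.004 and 0.100 without and 0.039, 0.038 and 0.025 with tumours. These overlapped, and the wide value was again tumour-free replicate 3.

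Other cell types moved here as well. All 7 epithelial genes tested were called higher, with a summed share that rose from between 0.00492% and 0.00694% to between 0.145% and 0.152%. Monocyte and neutrophil genes were called higher for 3 of 7 each, and hepatocyte genes lower for 4 of 8. Endothelial genes were called lower for 3 of 8, from a share between 0.652% and 0.892% to one between 0.342% and 0.448%, as were B cell genes for 2 of 5 and stellate genes for 2 of 6. No T or NK cell or proliferation gene was called. The KC genes, none of them called, held between 2.61% and 3.94% and then between 2.54% and 2.85%. Their part in the members' values was not tested.

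The 2 tumour comparisons used different samples and separate tables, so their difference was not tested. Side by side, the members' median was 0.40 in TIM4+CD206+ and 0.04 in TIM4+CD206hi KCs. All 76 members were higher in TIM4+CD206+ KCs, so the 47 that were higher in TIM4+CD206hi KCs were higher in both. Among other genes of TIM4+CD206hi KCs the median difference rose with GC content, from -0.12 under 40% to 0.45 at 60% and over, and over the 76 members GC content and difference had a Pearson r of 0.32 and a Spearman rho of 0.26. Centring each sample on its median gene moved the median of all genes to -0.13 and that of the members to -0.12, with 11 members positive. Quantile normalization moved them to -0.11 and 0.07, with 56 members positive. The members thus lay near the middle of all genes as deposited and after centring, and above it after quantile normalization.

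The third comparison asks what differs in KCs without Id3. Id3 itself read 12.58, 12.46 and 12.82 in Id3f/f and 9.83 and 9.82 in Clec4fCreId3f/f samples, in the direction of the labels, with signal left in both deleted samples. Clec4f, whose locus drives the Cre, read 17.59, 17.62 and 17.71 and then 16.13 and 16.11. Xist read 6.38, 6.33 and 6.36 and then 9.84 and 9.76, and the Y-linked Eif2s3y read 8.44, 8.77 and 9.12 and then 6.95 and 6.95. Sex and genotype of these samples therefore cannot be told apart in anything that follows.

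After Id3 deletion 74 of the 76 members had a lower mean. Their median difference was -0.31 on the log2 scale, with a range from -1.43 to 0.17, beside a median of 0.00 over the 12833 genes tested. Small subunit genes had a median of -0.30 and large subunit genes of -0.31. In limma 6 members were called, all lower, beside 3.37% of all genes called lower and 3.08% higher. They were 1 small subunit gene, Rps27, and 5 large subunit genes, among them Rpl29, Rpl37, Rpl7 and Rpl24. At an unadjusted p under 0.05 there were 61 members, beside 23.6% of all genes. In 67 members both Clec4fCreId3f/f samples lay below every Id3f/f sample, 27 of the small and 40 of the large subunit, beside 21.7% of all genes, and in none above, beside 20.2%.

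The 6 calls rest on few samples. Left out in turn, Id3f/f replicates 1, 2 and 3 gave 0, 2 and 44 member calls. The fit without Id3f/f replicate 1 called 0.896% of all genes lower and 0.717% higher. The 2 calls without replicate 2 were lower, beside 1.54% of all genes called lower. Of the 44, 43 were lower, beside 7.64% of all genes, and 1, Rps2, was higher, beside 6.78%. With Clec4fCreId3f/f replicates 1 and 2 left out in turn, the members' medians were -0.23 and -0.37. The members' median ran from -0.23 to -0.37 in these fits, which leave a lone Clec4fCreId3f/f sample assumed to vary like the others in the last 2 cases. Id3f/f replicate 1 was the highest sample for 68 members and Clec4fCreId3f/f replicate 1 the lowest for 70.

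Rpl29 fell most. A small, basic protein of the large subunit, it read 10.25, 10.12 and 9.03 in Id3f/f and 8.31 and 8.42 in Clec4fCreId3f/f samples, a difference of -1.43 ± 0.29 (SE) with an adjusted p of 0.024 in limma. The groups did not overlap, but Id3f/f replicate 3 lay nearer to the Clec4fCreId3f/f samples than to the other Id3f/f samples. The difference ran from -1.21 to -1.82 when a sample was left out, and the adjusted p was above 0.05 in each of these fits except the one without Id3f/f replicate 3. Against the members' mean Rpl29 stood at -1.45, -1.38 and -2.50 and then at -2.90 and -2.93, an SD of 0.76, where the median member had 0.06.

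The gene was low in the Id3 table as a whole. In the tumour tables Rpl29 stood between -0.18 and 0.09 from the members' mean in all 12 samples. Among the 46 large subunit genes it ranked 19 and 17 by level per kilobase in the control samples of the tumour tables and 41 in the Id3f/f samples. Rpl29 lies at chr9:106428889-106431568 on GRCm38.p6, and its transcript of 583 bases has 58.1% GC.

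Rps27, a small subunit protein with a zinc finger, read 11.20, 11.00 and 11.33 in Id3f/f and 10.60 and 10.76 in Clec4fCreId3f/f samples and fell by 0.50 on the log2 scale, with an adjusted p of 0.035 in limma. Its near-identical copy Rps27rt read 11.18, 10.98 and 11.30 and then 10.57 and 10.74, a difference of -0.49, also with an adjusted p of 0.035. Reads of these 2 genes may have been shared, so they do not count as separate observations. Both Clec4fCreId3f/f samples were lower in each.

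The other calls were smaller and close to the threshold. Rpl37 read 10.96, 10.73 and 10.91 and then 10.31 and 10.54, and fell by 0.44 with an adjusted p of 0.044 in limma. Rpl7 read 12.76, 12.70 and 12.82 and then 12.40 and 12.46, and fell by 0.33 with an adjusted p of 0.044. Both are large subunit proteins whose groups did not overlap. Rpl24, a protein at the face toward the small subunit, was called at an adjusted p of 0.0496, with 11.10, 10.90 and 10.97 and then 10.54 and 10.68, and is named after its value was seen.

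Most of the well-known members missed the threshold with differences of similar size. Rps6 differed by -0.29 ± 0.09, Rps19 by -0.28 ± 0.10, Rps27a by -0.36 ± 0.11, Rpl11 by -0.29 ± 0.10 and Rpl13a by -0.30 ± 0.09, with adjusted p between 0.078 and 0.13 in limma. Rplp1 and Rplp2 differed by -0.32 ± 0.12 and -0.31 ± 0.11. Rpl22 and Rpl38 differed by -0.26 ± 0.12 and -0.25 ± 0.13, and Rpl5 by -0.22 ± 0.11. The groups overlapped for Rpl5 and Rpl38 and did not for the others. Without Id3f/f replicate 3, Rps6, Rps27a, Rpl13a, Rplp1, Rplp2 and Rpl5 were called lower in limma, at adjusted p from 0.013 for Rps27a to 0.037 for Rpl13a. That fit called 43 of the 76 members lower, beside 7.64% of all genes.

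The 4 X-linked members were no exception. Rps4x differed by -0.29 ± 0.11, Rpl10 by -0.24 ± 0.09, Rpl36a by -0.27 ± 0.10 and Rpl39 by -0.28 ± 0.10. Their median was -0.28, and that of the 72 autosomal members was -0.31. None of the 4 was called, but Rps4x was called lower without Id3f/f replicate 3, at an adjusted p of 0.016 in limma. That fit called 43 of the 76 members and 7.64% of all genes lower.

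A few members did not go down with the rest. Rps2 read 12.38, 12.36 and 12.71 in Id3f/f and 12.61 and 12.70 in Clec4fCreId3f/f samples, a difference of 0.17 ± 0.11 with an adjusted p of 0.43 in limma. The groups overlapped through Id3f/f replicate 3. Without it the difference was 0.28, and Rps2 was called higher in limma at an adjusted p of 0.026, in a fit that called 6.78% of all genes higher. Rpl3 read 12.97, 12.90 and 12.80 and then 12.92 and 12.90, a difference of 0.02, which was -0.02 without Id3f/f replicate 3. Rpl4 differed by -0.04, Rps18 by -0.05, Rplp0 by -0.12 and Rpsa by -0.13. Rpl4, Rpl3, Rplp0 and Rps2 have the longest coding sequences of the members, at 1257, 1209, 951 and 906 bases. Rps18 has only 456, and Rpl5, with 891, differed by -0.22.

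Small and large subunits moved alike after Id3 deletion. Small subunit means were 11.69, 11.48 and 11.53 in Id3f/f and 11.22 and 11.36 in Clec4fCreId3f/f samples, and large subunit means were 11.71, 11.51 and 11.53 and then 11.20 and 11.33. The small minus large margin was -0.018, -0.033 and 0.007 and then 0.016 and 0.032, without overlap. The margins differed by 0.04, beside a within-group SD of 0.018, and by 0.027 with the length trend removed. Rpl29, a large subunit gene at -1.43, and Rps2, a small subunit gene at 0.17, both widen this difference. How much of it rests on these genes was not tested. The median differences of small and large subunit genes were -0.30 and -0.31.

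The Id3 table had a trend with transcript length. Per doubling of length the values changed by -0.043, -0.020 and -0.030 relative to the average sample in the Id3f/f samples and by 0.054 and 0.040 in the Clec4fCreId3f/f samples, without overlap. Other genes of 500 to 1000 bases had a median difference of -0.14, those of 1000 to 1500 bases of -0.08 and those of 3000 to 5000 bases of 0.06. The 46 members of 500 to 1000 bases had a median of -0.32, the 14 shorter ones of -0.31 beside -0.05 for 234 other genes of that length, and the 10 members of 1000 to 1500 bases of -0.24. In each of these bins the members' median was below that of other genes of like length.

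The 61 members at an unadjusted p under 0.05 became 8 with the length trend taken out, beside 3048 of 12656 genes. With GC and length trends taken out they became 12, beside 3049. With the length trend taken out of every sample the members' median was -0.14, and 1 member, Rpl29, was called, beside 2.79% of all genes called lower. With the trends with GC content and length both taken out, the median was -0.14 and Rpl29 remained the only call, at -1.27 with an adjusted p of 0.027 in limma, beside 3.14% of all genes called lower. The other 5 calls ended under either correction. Over the 76 members, length and difference had a Pearson r of 0.29 and a Spearman rho of 0.42, and GC content and difference -0.12 and -0.06. How much of the members' difference belongs to length and how much to genotype cannot be told apart for genes that are nearly all short.

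A pyrimidine run at the start did not divide the members. The 31 with a run had a median difference of 0.44 in TIM4+CD206+ KCs, 0.06 in TIM4+CD206hi KCs and -0.29 after Id3 deletion, and the 25 without a run had 0.39, -0.01 and -0.31. The 31 with CCGGAA had 0.43, 0.05 and -0.29, and the 25 without it 0.39, 0.04 and -0.30. Of the genes shown by sequence, Rps27 with a run and Rpl37 without one had the 2 lower values after Id3 deletion, and Rps2 the highest. Rps2 was counted as without a run by its printed window, which is not shown to be the start of its first exon.

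The remaining genes of the ribosome pathway came from lists chosen by function. The 4 ribosomal protein genes that the symbol rule missed had medians of 0.34, 0.02 and -0.27 in the 3 comparisons, in the order used so far, with 0 of 4 called in each. After Id3 deletion Fau, which makes a small subunit protein fused to a ubiquitin-like one, differed by -0.38 ± 0.10, Rack1, the scaffold of the small subunit head, by -0.27 ± 0.11, and Rps3a1 by -0.26 ± 0.08. All 4 genes of the list had groups that did not overlap there, as most members had.

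Paralogues of members, some of which replace them in the ribosome, had medians of 0.29 over 8 genes, -0.12 over 7 and -0.34 over 7. After Id3 deletion 3 of the 7 were called lower in limma, Rps27rt at -0.49, Rps27l at -0.39 and Rpl36al at -0.45, and 0 higher. Rpl10l was listed at 0 in all 3 tables. Annotated pseudogenes had medians of 0.29 over 4 genes, -0.06 over 5 and -0.07 over 5, with 0 called.

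Of 17 translation factors and other mRNAs known for a pyrimidine start, 15 were higher in tumour-bearing TIM4+CD206+ KCs, with a median of 0.29. Npm1, a nucleolar chaperone of ribosome assembly, was the only call, higher by 0.90 ± 0.17 with an adjusted p of 0.027 in limma. Their median was 0.04 in TIM4+CD206hi KCs, with 0 called, and -0.09 after Id3 deletion, where 13 were lower and 2 were called, the initiation factor 3 subunits Eif3k at -0.43 and Eif3m at -0.40.

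The 40 genes of ribosome biogenesis did not go with the members. Their medians were 0.01, 0.17 and 0.04, and 25 of the 40 were higher after Id3 deletion. Calls there went both ways, with Ubtf, the transcription factor of ribosomal DNA, at 0.48 and Mybbp1a at 0.46, and Nop10, a short protein of the pseudouridylation complex, at -0.49. The 11 regulators, among them Myc, Mtor and Larp1, had medians of -0.14, 0.15 and -0.04, with 0 called in limma in any comparison.

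Other complexes with many short mRNAs were set beside the ribosome. The 78 mitochondrial ribosomal protein genes had medians of 0.22, -0.08 and -0.20, with 9 called lower after Id3 deletion and 0 called otherwise. Complex I genes had 0.26, -0.19 and -0.30, with 5 of 37 called lower after Id3 deletion, and the 39 proteasome genes had 0.07, -0.22 and -0.12, with 4 called lower there. With GC and length trends taken out, the Id3 medians were -0.11, -0.13 and -0.03 for these 3 lists, beside -0.14 for the members. In TIM4+CD206+ KCs they were 0.13, 0.10 and -0.02, beside 0.24 for the members.

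**Figure D5:**
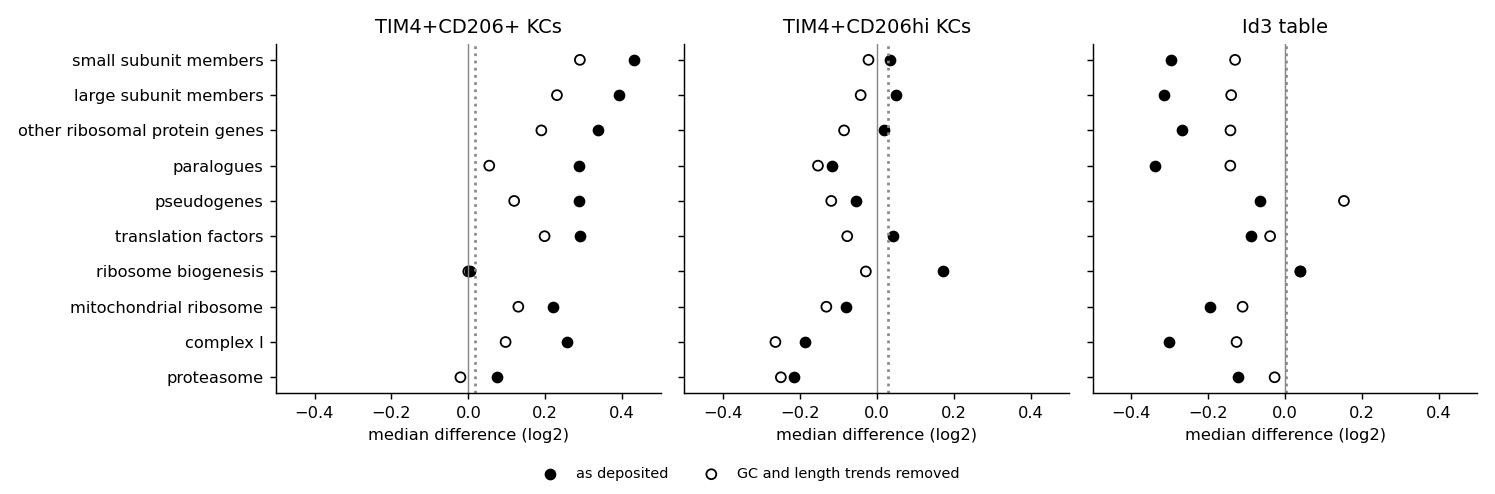
Median log2 difference of the members of each subunit and of 8 other gene lists, as deposited (filled) and with GC and length trends removed (open), in the 3 comparisons; the dotted line is the median of all genes tested and the solid line is 0. In the Id3 table both subunits lie near -0.30 as deposited and near -0.14 with the trends removed, close to complex I and the mitochondrial ribosome.

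Few marker genes of other cells were called after Id3 deletion. None of the 5 epithelial genes tested was called and Cldn4 was listed at 0, and none of the hepatocyte, neutrophil, B cell, T or NK cell, stellate and proliferation genes was called. KC genes were called for 3 of 10 higher and 3 lower, with a summed share between 3.90% and 4.01% and then between 4.18% and 4.22%. Of the monocyte genes 1 of 5 was called lower, and their summed share was 0.0560%, 0.0507% and 0.0617% in Id3f/f and 0.0310% and 0.0339% in Clec4fCreId3f/f samples, without overlap. Vcan was listed at 0. Of the endothelial genes 1 of 8 was called in each direction. The part of these cells in the members' values was not tested.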

How the data were processed

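Total RNA of sorted KCs was amplified with SMART-Seq v4 and sequenced in paired-end runs. The submitters' processing notes name STAR 2.7.10a, HTSeq, DESeq2 and the build mm10, while the study's methods also name a later build. The authors deposited 3 tables of log2 values, 1 per comparison, normalized separately and shaped like regularized log values although named counts and TPM. The deposited log2 values hold no read totals, so no counting interval was possible and only the number of samples sets the precision.

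Samples were grouped by their titles. Each table was fitted in R 4.3.3 with limma 3.58.1 (trend, no block) over rows of at least log2 of 10 in 3 samples, or 2 in the Id3 table, with two-sided tests and Benjamini-Hochberg adjustment. Tables were made in Python 3.11.15 with pandas 2.3.3 and numpy 2.4.6. Transcript length and GC content came from GENCODE mouse release 21, gene positions and promoters from RefSeq GRCm38.p6. Trends with length and GC content were removed with splines of 5 degrees of freedom. The fit was tested on simulated data.

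Members named were those called with the 5 lowest adjusted p in a direction, or the 3 with the largest difference where fewer than 3 were called, and a fixed set of stalk, X-linked and well-known genes, with the 3 highest and lowest of each subunit by level. Some genes that these rules take are not reported here. Members and lists were chosen with earlier results of these data known. In TIM4+CD206+ KCs samples of the same replicate number deviated together (correlations over genes of 0.35, 0.56 and 0.15), so the numbers were taken to pair them. Samples of different numbers were not compared. Alternatives were a stricter filter and none, median centring, quantile normalization, no variance trend, the block, the trend removals and leaving out each sample.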

Additional observations from a re-analysis of the deposited data

How the results depend on the processing

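Depth is not given, so only the spread between samples limits the values. In TIM4+CD206+ KCs the members' median stayed positive under every alternative tried. The small minus large difference was 0.045 with the length trend removed and 0.048 with GC and length trends removed, with or without the replicate block, and the replicate block alone gave 1 member call. In TIM4+CD206hi KCs 0 to 1 members were called when a sample was left out. Same-numbered samples did not deviate together there (correlations over genes of -0.05, -0.13 and -0.05) or in the Id3 table (-0.07 and -0.10), where the block drops Id3f/f replicate 3. After Id3 deletion the 6 member calls became 0 with no filter, 14 with the stricter filter, 12 with median centring, 2 with quantile normalization, and 1 in each of the fits without the variance trend, without the length trend and without both the GC and the length trend. These were lower, in fits that called 0.0597%, 5.08%, 4.29%, 2.91%, 3.27%, 2.79% and 3.14% of all genes lower. There were 56 with the replicate block, 55 lower beside 8.19% of all genes and Rps2 higher beside 8.09%, and 0 to 44 over samples left out. Rps2 was 0.28 with the block (adjusted p of 0.031 in limma), 0.43 with the length trend removed and the block (5.8e-06) and 0.42 with both trends removed and the block (1.4e-05). The block sets aside Id3f/f replicate 3, the sample through which the groups overlap for Rps2. These p-values and the 56 calls therefore rest on few samples and on a pairing that the values of the Id3 table do not show. The members' median there was -0.14 with the length trend or GC and length trends removed and -0.15 in both with the block. Other causes were not tested. Small minus large levels per coding kilobase were 0.13, -0.0099 and -0.12.

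Some single members changed direction. In TIM4+CD206+ KCs Rpl23 was -0.030 after both trends were removed, block or no block. Over samples left out Rplp0 ran from -0.057 to 0.37. In TIM4+CD206hi KCs median centring gave -0.032 for Rplp1, -0.14 for Rps27a, -0.064 for Rpl38, -0.058 for Rpl36a and -0.057 for Rpl39. Quantile normalization gave 0.048 for Rplp0, 0.0077 for Rps19, 0.026 for Rpl13a and -0.016 for Rpl39. With or without the block, removal of the length trend gave -0.076 for Rps27a, and removal of GC and length trends gave -0.10 for Rplp1, -0.041 for Rpsa, -0.0016 for Rps27a and -0.067 for Rpl38. Over samples left out the ranges were -0.42 to 0.010 for Rps27, -0.34 to 0.021 for Rpl7, -0.23 to 0.053 for Rplp0, -0.037 to 0.50 for Rpsa, -0.17 to 0.26 for Rps27a, -0.33 to 0.15 for Rps6, -0.15 to 0.079 for Rps19, -0.15 to 0.085 for Rpl5, -0.19 to 0.041 for Rpl11, -0.26 to 0.055 for Rpl10, -0.21 to 0.15 for Rpl13a, -0.28 to 0.23 for Rpl22, -0.32 to 0.061 for Rps4x, -0.092 to 0.37 for Rpl36a and -0.13 to 0.38 for Rpl39. After Id3 deletion Rpl3 was -0.022 with the replicate block, -0.0047 with median centring, and -0.022 to 0.064 over samples left out.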

Other observations

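Among the paralogues, Rpl22l1, which can take the place of Rpl22 in the ribosome, had the largest difference in TIM4+CD206+ KCs, 0.76 ± 0.26 (SE) higher in tumour-bearing samples without overlap of the groups, with an adjusted p of 0.18 in limma. With GC and length trends removed its difference was 0.23. Rpl39l, known from the testis, was low in all 3 tables, with group means of 5.94 and 5.72 in TIM4+CD206+ KCs, 4.60 and 4.17 in TIM4+CD206hi KCs and 5.43 and 5.41 in the Id3 table, and was called in none of them. Rps4l was higher, with 11.02 and 10.92, 10.15 and 10.03, and 10.38 and 10.10, and was likewise not called.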
